A study of Mus musculus with 18 samples.

Results

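Genes of epidermal barrier lipid synthesis were followed from chronically irradiated skin through papilloma to squamous cell carcinoma of the mouse. The 9 genes were Elovl4, Cers3, Cyp4f39, Pnpla1, Alox12b, Aloxe3, Ugcg, Smpd1 and Abca12, taken by their symbols from the deposited expression table, and all 9 were among the 14521 named genes of that table. RNA was sequenced from 6 female SKH-1E Hairless littermates, an outbred strain whose mice lack a working Hairless gene and which is prone to skin tumours under ultraviolet light. Every animal had been irradiated chronically under a solar simulator and killed after irradiation ended, so all 3 groups share the strain and the exposure, and the reference is sun-damaged rather than unexposed skin. Each mouse gave 1 sample of non-lesional chronically irradiated skin (CHR), 1 papilloma (PAP) and 1 cutaneous squamous cell carcinoma (SCC). This made 18 libraries with n = 6 in each group. The papilloma is an outgrowth of the epidermis that the authors describe as precancerous. The lesions were bulk tissue of low grade, estimated by the authors to be mostly tumour cells.

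The outer epidermis holds water because stacked lipid sheets, rich in ceramides with very long acyl chains, fill the space between cornified cells. Differentiating keratinocytes make these acylceramides by lengthening a fatty acid, hydroxylating its far end, joining it to a sphingoid base and adding linoleate. The product is glucosylated, packed into lamellar granules, secreted, and freed and oxidized outside the cell so that it can be bound to the cornified envelope. Inherited loss of many of these enzymes causes ichthyosis, a scaling disease of the skin. The comparisons below give the transcripts of these enzymes along the sequence from irradiated skin to papilloma and carcinoma, each within the same mouse.

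Values for a gene are normalised reads, that is, reads recovered from the deposited transformed values and divided by the size factor of the library. The 18 libraries held 15.4 to 21.0 M recovered reads. Differences between groups are log2 fold changes of the deposited values, each plus 1, fitted with limma with the mouse as a block, and a gene is called when its p adjusted by the Benjamini-Hochberg method over 14521 genes is under 0.05. The PAP vs CHR and SCC vs CHR comparisons share the CHR libraries.

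The tissues differed in their cell type markers. Beside the list counts below, 29.3% of all genes were called lower and 23.3% higher in PAP vs CHR. General epithelial genes, 24 in the list, summed to 353861 to 550117 normalised reads in CHR, 829915 to 1333970 in PAP and 326287 to 921449 in SCC, and 18 of 24 rose in PAP vs CHR while 2 fell. The 14 sebaceous gland genes all fell in PAP vs CHR, with sums of 68304 to 175073 in CHR, 8268 to 12430 in PAP and 7463 to 21893 in SCC. The 12 skeletal muscle genes all fell too, from sums of at least 392821 in CHR to at most 29571 in PAP, and were uneven in SCC, from 412 in mouse 10 to 198556. Adipocyte genes fell in 9 of 10, dermal fibroblast genes in 10 of 11 and macrophage genes in 10 of 11 in PAP vs CHR, as did all 9 T cell genes measured. No gene of these lists was at 0 reads in all libraries of a group. In bulk tissue, fewer cells of a type and less RNA per cell cannot be told apart.

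Of the 9 barrier lipid genes, 2 fell and 0 rose in PAP vs CHR, against a background of 52.6% of all genes called in that comparison, 29.3% lower and 23.3% higher. The same numbers held in SCC vs CHR, with 2 lower and 0 higher beside a background of 38.4% of all genes, 22.7% lower and 15.8% higher. Elovl4 and Smpd1 were the genes called in both. In SCC vs PAP 0 of 9 were called by limma, beside 9.85% of all genes (8.75% higher, 1.1% lower), 0 of 9 had an unadjusted p under 0.05, and limma-voom on the recovered reads also called 0. The median log2 fold change of the 9 genes was -0.05 in PAP vs CHR, -0.16 in SCC vs PAP and -0.16 in SCC vs CHR, where the median of all genes was 0.0014, -0.02 and -0.02. On this, the deposited, scaling the share called among 9 genes moves in coarse steps, and no difference from all genes was read from it. Without any overlap between the 6 libraries of each group, 0 of 9 genes differed in PAP vs CHR (33.8% of all genes, 19.4% lower), 0 of 9 in SCC vs PAP (0.42%, 0.165% lower) and 1 of 9, Elovl4, in SCC vs CHR (19.8%, 11.3% lower).

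**Figure D1:**
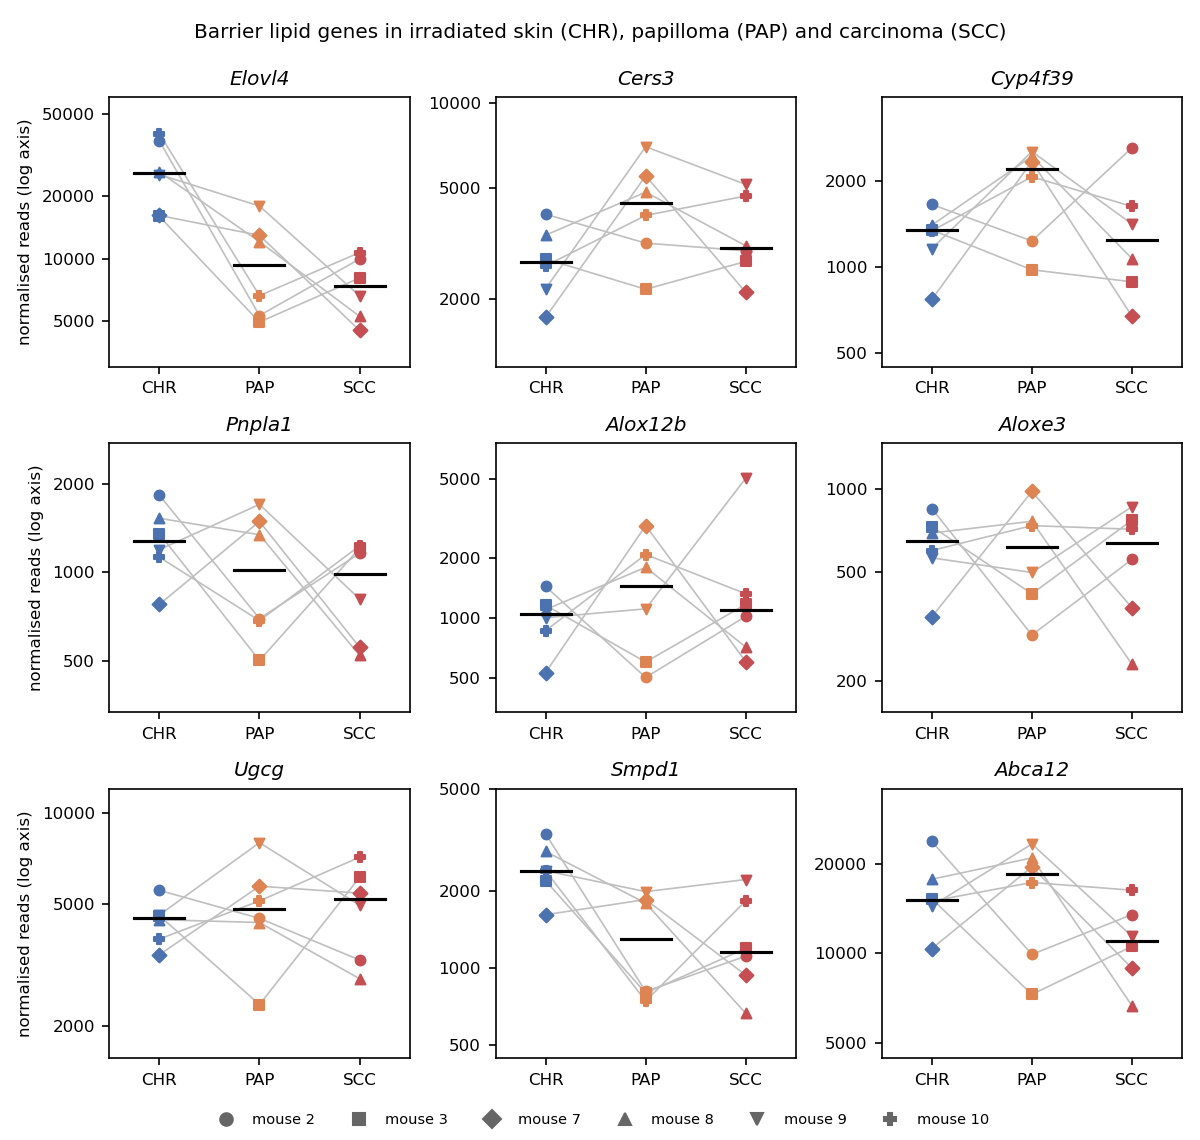
Normalised reads (log axis) of the 9 barrier lipid genes in CHR, PAP and SCC. Each point is a library, lines join the samples of a mouse and the black bar is the median of n = 6. Elovl4 falls from a median of 25915 in CHR to 9343 in PAP and 7327 in SCC. Its SCC points lie below all CHR points, while its PAP points overlap with CHR. The CHR and lesion points of the other genes overlap.

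Per kilobase of merged exon, which allows genes to be compared, Elovl4 was the highest of the 9 in CHR with a median of 8564 normalised reads per kb. Abca12 followed with 1021, Ugcg with 868, Cers3 with 831, Smpd1 with 719, Cyp4f39 with 470.0, Alox12b with 432, Pnpla1 with 263 and Aloxe3 with 101. The ranges of the 6 libraries did not overlap between Elovl4 and Abca12, nor between Pnpla1 and Aloxe3, and overlapped between all other neighbours in this order. In PAP the order became Elovl4 with 3088, Cers3 with 1351, Abca12 with 1243, Ugcg with 924, Cyp4f39 with 771, Alox12b with 598, Smpd1 with 390 (median 389.6), Pnpla1 with 211 and Aloxe3 with 96.5, and every pair of neighbours overlapped. In SCC only Elovl4, at 2421, stood apart from its neighbour Ugcg, at 999. Smpd1 thus moved from the fifth place in CHR to the seventh in both lesions, and Elovl4 kept the first place and Aloxe3 the last in all 3 groups.

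The sequences before the transcription start are shown for the 2 called genes, Elovl4 and Smpd1, and for 2 genes of the same pathway that were not called, Cers3 and Cyp4f39, as examples with and without motif matches. Each is the 250 bases before the RefSeq start on GRCm38.p6, written 5′ to 3′ along the strand of the gene, with matches to the searched motifs in capitals. The Elovl4 window is chr9:83806306-83806555 (minus strand), that of Smpd1 is chr7:105554110-105554359, that of Cers3 chr7:66743254-66743503 and that of Cyp4f39 chr17:32452473-32452722 (all plus strand).
Elovl4: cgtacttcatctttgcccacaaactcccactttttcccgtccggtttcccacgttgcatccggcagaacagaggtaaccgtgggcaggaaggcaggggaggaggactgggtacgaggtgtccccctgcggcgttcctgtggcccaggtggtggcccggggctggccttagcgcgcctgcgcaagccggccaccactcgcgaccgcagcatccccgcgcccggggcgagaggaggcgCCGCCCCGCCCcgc
Smpd1: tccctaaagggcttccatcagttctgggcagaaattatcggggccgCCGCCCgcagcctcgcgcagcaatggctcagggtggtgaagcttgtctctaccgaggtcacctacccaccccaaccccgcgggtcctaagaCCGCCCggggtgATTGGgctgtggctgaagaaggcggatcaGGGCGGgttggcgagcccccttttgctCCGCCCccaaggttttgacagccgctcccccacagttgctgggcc
Cers3: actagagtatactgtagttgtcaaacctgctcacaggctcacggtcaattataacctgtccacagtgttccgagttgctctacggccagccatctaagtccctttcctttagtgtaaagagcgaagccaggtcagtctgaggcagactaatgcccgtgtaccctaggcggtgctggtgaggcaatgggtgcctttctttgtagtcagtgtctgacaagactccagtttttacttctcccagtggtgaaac
Cyp4f39: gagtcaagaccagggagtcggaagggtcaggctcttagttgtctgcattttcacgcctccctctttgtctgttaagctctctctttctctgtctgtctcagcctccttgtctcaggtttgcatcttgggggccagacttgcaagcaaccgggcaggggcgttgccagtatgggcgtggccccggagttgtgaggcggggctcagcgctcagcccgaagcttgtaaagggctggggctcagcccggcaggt

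The motifs were searched on both strands in 32851 mouse promoter windows of the same length. They were TGANTCA for AP-1, held by 6.75% of the windows, GGGCGG for SP1 (32.7%), CCAAT for NF-Y (33.8%), CCGGAA for ETS factors (12.0%), AACCGGTT for GRHL factors (0.116%) and TTTCCCGC for E2F (0.895%). Elovl4 held 2 SP1 matches, which overlap by 1 base, and Smpd1 held 4 SP1 matches and 1 NF-Y match. Cers3, Cyp4f39 and Abca12 held none of the 6 motifs, Ugcg held 2 SP1 matches, Alox12b 3 and Pnpla1 1 NF-Y match. The GC content was 69.6% in Elovl4 and 64.8% in Smpd1, the called genes. In the genes not called it was 80.4% in Ugcg, 66% in Alox12b, 59.6% in Cyp4f39, 54% in Pnpla1, 53.2% in Abca12 and 49.6% in Cers3, so that it did not separate called from other genes, and the median over all windows was 52.4%. Windows were found for 8 of the 9 genes, Aloxe3 being the exception, and a match describes letters only.

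Elovl4, the elongase that makes the ultra-long fatty acids of acylceramides, fell in both lesions. The gene (ENSMUSG00000032262.13) lies on the minus strand at chr9:83778692-83806277 of GRCm38, in the GENCODE M21 annotation from which all gene positions here are taken. Its normalised reads were 16003 at the lowest, 25915 at the median and 40265 at the highest in CHR, 4924, 9343 and 17977 in PAP, and 4494, 7327 and 10693 in SCC. All 6 SCC libraries were below all CHR libraries, and 5 of 6 PAP libraries were. The mean was 2.70-fold lower in PAP than in CHR and 3.58-fold lower in SCC. The fitted log2 fold change was -1.50 in PAP vs CHR (SE 0.34, 95% interval -2.25 to -0.76, adjusted p = 0.00272 by limma, lower in 6 of 6 mice). It was -1.81 in SCC vs CHR (SE 0.34, 95% interval -2.55 to -1.07, adjusted p = 0.00145 by limma, lower in 6 of 6 mice). Within mice the papilloma held a median of 0.383 of the reads of the irradiated skin, from 0.143 in mouse 2 to 0.801 in mouse 7. The carcinoma held a median of 0.267, from 0.200 in mouse 8 to 0.503 in mouse 3. PAP and SCC overlapped, with a log2 fold change of -0.31 (95% interval -1.05 to 0.44, adjusted p = 0.638 by limma), and the carcinoma was the lower of the 2 lesions in 3 of 6 mice.

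Cers3, the ceramide synthase that joins ultra-long acyl chains to the sphingoid base, was higher on average in the papillomas but was not called. It lies on the plus strand at chr7:66743504-66823691 (ENSMUSG00000030510.11). Its normalised reads had a lowest, median and highest value of 1720, 2704 and 4017 in CHR, 2167, 4398 and 7004 in PAP, and 2115, 3037 and 5134 in SCC. The groups overlapped, although 3 of 6 papillomas were above every CHR library. The log2 fold change in PAP vs CHR was 0.61 (SE 0.27, 95% interval 0.04 to 1.19, adjusted p = 0.0686 by limma), with the papilloma higher in 4 of 6 mice. Leaving out mouse 2 gave 0.80 (adjusted p = 0.0346 by limma) and leaving out mouse 3 gave 0.81 (adjusted p = 0.0364 by limma), and both values passed the threshold. Mice 2 and 3 were those whose papilloma was lower than their own skin, so leaving out either raises the difference. The fit of PAP and CHR alone gave an adjusted p of 0.120 by limma. In SCC vs CHR the value was 0.29 (95% interval -0.29 to 0.86, adjusted p = 0.416 by limma).

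Cyp4f39, the cytochrome P450 that hydroxylates the far end of the ultra-long chain, had a like set of values. The gene (ENSMUSG00000061126.5) lies on the plus strand at chr17:32452723-32493320. Its normalised reads were 770.2, 1342 and 1654 in CHR at the lowest, median and highest, 978, 2203 and 2533 in PAP, and 672, 1242 and 2612 in SCC. Of the papillomas 4 of 6 were above all CHR libraries, and the other 2, from mice 2 and 3, were lower than the irradiated skin of their own mouse. The log2 fold change was 0.52 in PAP vs CHR (SE 0.28, 95% interval -0.08 to 1.12, adjusted p = 0.135 by limma) and 0.01 in SCC vs CHR (95% interval -0.59 to 0.61, adjusted p = 0.980 by limma). Without mouse 2 the gene was called higher in PAP vs CHR (0.70, adjusted p = 0.0308 by limma).

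Pnpla1, the enzyme that transfers linoleate to the hydroxylated ceramide, was not called in any comparison. It lies on the plus strand at chr17:28858411-28890309 (ENSMUSG00000043286.12) and overlaps an antisense gene, Pnpla1os. Whether the counting used strand was not given in the sources used here, so reads of the 2 genes cannot be told apart. Its normalised reads were 779, 1274 and 1827 in CHR at the lowest, median and highest, 504, 1020 and 1700 in PAP (median 1020.1, highest 1700.3), and 524, 987 and 1230 in SCC (highest 1230.2). The carcinoma was lower than the irradiated skin in 5 of 6 mice, with a log2 fold change of -0.50 (95% interval -1.21 to 0.20, adjusted p = 0.242 by limma), and the papilloma was lower in 4 of 6 (-0.35, adjusted p = 0.394 by limma).

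The 2 epidermal lipoxygenase genes lie next to each other on the plus strand of chromosome 11, Aloxe3 (ENSMUSG00000020892.10) at chr11:69125896-69149115 and Alox12b (ENSMUSG00000032807.5) at chr11:69156989-69169792, 7874 bases apart. Alox12b oxidizes the linoleate of acylceramide and Aloxe3 converts the product, which is needed before the lipid can be bound to the envelope. Alox12b had normalised reads of 531, 1051 and 1438 in CHR at the lowest, median and highest, 502, 1453 and 2912 in PAP, and 602, 1093 and 5038 in SCC. The groups overlapped, and the lesions were the more variable, with a coefficient of variation of 30.03% in CHR, 62.4% in PAP and 103% in SCC (102.5%). Its log2 fold change was 0.34 in PAP vs CHR (95% interval -0.71 to 1.39, adjusted p = 0.580 by limma) and 0.32 in SCC vs CHR (95% interval -0.72 to 1.37, adjusted p = 0.629 by limma). The value in SCC rested on mouse 9, since without it the difference was -0.06. Aloxe3 had 343, 645 and 851 normalised reads in CHR, 294, 617 and 982 in PAP, and 230.2, 635 and 865 in SCC. Its log2 fold change was -0.08 in PAP vs CHR (95% interval -0.78 to 0.63, adjusted p = 0.860 by limma) and -0.16 in SCC vs CHR (adjusted p = 0.734 by limma), so that neither gene was called.

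Ugcg, the glucosylceramide synthase that readies ceramides for the lamellar granule, had nearly equal group medians. Its gene (ENSMUSG00000028381.8) lies on the plus strand at chr4:59189257-59222833. The normalised reads were 3419, 4524 and 5561 in CHR at the lowest, median and highest, 2347, 4817 and 7971 in PAP, and 2854, 5208 and 7139 in SCC. It was the least variable of the 9 genes in CHR, with a coefficient of variation of 16.6%, which was 36.9% in PAP. The log2 fold change was 0.11 in both PAP vs CHR (95% interval -0.46 to 0.68, adjusted p = 0.756 by limma) and SCC vs CHR (adjusted p = 0.764 by limma).

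Abca12, the transporter that loads glucosylceramides into lamellar granules, had the second highest median of reads among the 9 genes in CHR, after Elovl4, and the highest in both lesions. It lies on the minus strand at chr1:71242276-71414910 (ENSMUSG00000050296.14). Its normalised reads were 10377, 15117 and 23753 in CHR at the lowest, median and highest, 7287, 18406 and 23295 in PAP, and 6673, 10983 and 16298 in SCC. The papilloma was higher than the irradiated skin in 4 of 6 mice and the carcinoma was lower in 5 of 6. The log2 fold change was -0.05 in PAP vs CHR (95% interval -0.68 to 0.59, adjusted p = 0.908 by limma) and -0.53 in SCC vs CHR (95% interval -1.16 to 0.11, adjusted p = 0.173 by limma), neither of which was called.

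Smpd1, the acid sphingomyelinase that frees ceramide from sphingomyelin, was the other gene that fell. The gene (ENSMUSG00000037049.9) lies on the plus strand at chr7:105554360-105558389. Its normalised reads were 1615, 2400 and 3347 in CHR at the lowest, median (2399.9) and highest, 740.4, 1300 and 1988 in PAP (median 1299.9), and 663, 1151 and 2218 in SCC. Of the libraries, 3 papillomas and 4 carcinomas were below all CHR libraries, and the groups overlapped. The mean was 1.86-fold lower than in CHR in both lesions. The log2 fold change was -0.94 in PAP vs CHR (SE 0.31, 95% interval -1.61 to -0.28, adjusted p = 0.0209 by limma), lower in 5 of 6 mice with mouse 7 at a ratio of 1.15. In SCC vs CHR it was -0.93 (SE 0.31, 95% interval -1.60 to -0.26, adjusted p = 0.0302 by limma), lower in 6 of 6 mice. The call was not stable to leaving out a mouse. In PAP vs CHR it was lost without mouse 2 (-0.74, adjusted p = 0.0885 by limma), mouse 3 (-0.86, adjusted p = 0.0711 by limma) or mouse 10 (-0.81, adjusted p = 0.0563 by limma). In SCC vs CHR it was lost without mouse 2 (-0.81, adjusted p = 0.0792 by limma), mouse 3 (-0.95, adjusted p = 0.0674 by limma) or mouse 8 (-0.72, adjusted p = 0.0945 by limma). The Elovl4 call held without any single mouse, at -1.24 to -1.74 in PAP vs CHR and -1.71 to -1.97 in SCC vs CHR.

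**Figure D2:**
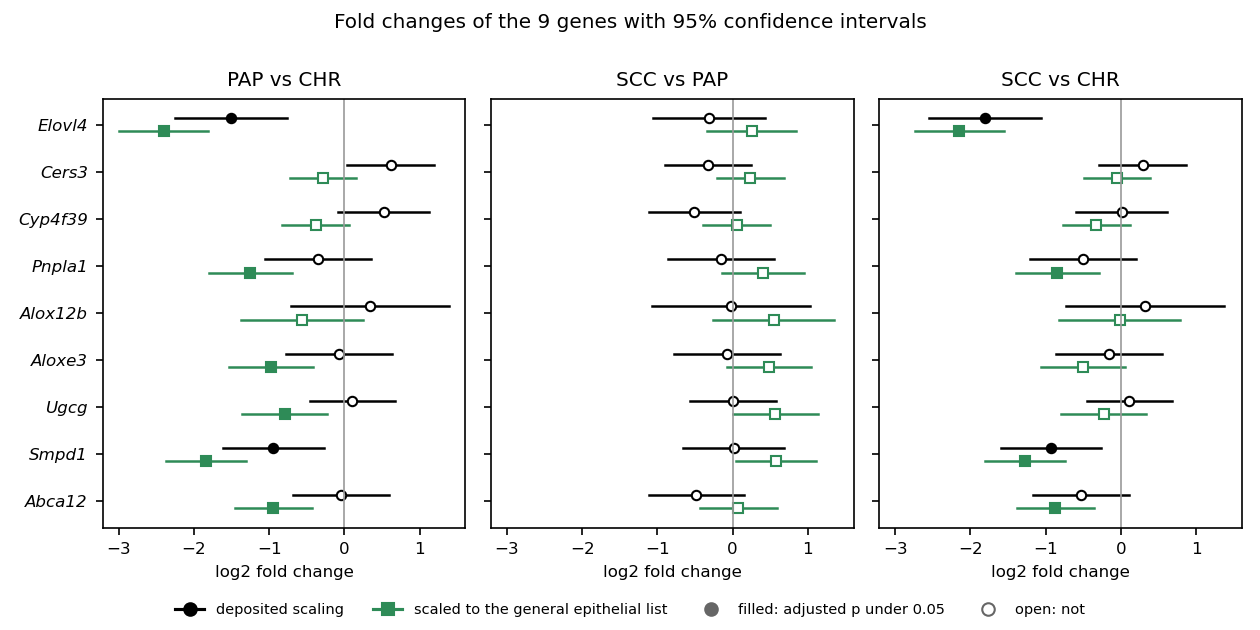
Log2 fold change of each barrier lipid gene in the 3 comparisons, with its 95% interval from limma (n = 6 mice). Black circles are the deposited scaling and green squares the values scaled to the general epithelial list, filled where the adjusted p is under 0.05. On the deposited scaling the filled points are Elovl4 and Smpd1 in both lesions, and the green points of PAP vs CHR lie lower for all 9 genes.

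A ratio of 2 genes of the same library does not depend on the size factor, and some ratios among the 9 genes differed between CHR and the lesions. The first 2 ratios below each set Cers3 against 1 of the 2 called genes. Reads of Elovl4 over reads of Cers3 were 5.75, 9.33 and 15.3 in CHR at the lowest, median and highest, 1.66, 2.31 and 2.57 in PAP, and 1.29, 2.21 and 3.35 in SCC. Neither lesion overlapped with CHR. Reads of Cers3 over reads of Smpd1 were 0.907, 1.14 and 1.27 in CHR, 2.69, 3.25 and 5.37 in PAP, and 2.26, 2.43 and 4.67 in SCC, again with no overlap between CHR and either lesion. Over all pairs of the 9 genes, 17 of 36 ratios did not overlap between PAP and CHR, 13 of 36 between SCC and CHR and 0 of 36 between SCC and PAP. Of all 80651350 pairs among the 12701 genes with at least 50 mean normalised reads, 35.0% did not overlap in PAP vs CHR, 21.4% in SCC vs CHR and 0.406% in SCC vs PAP. The 36 pairs are built from only 9 genes and are not independent. The called gene Elovl4 was in 5 of the 17 pairs and Smpd1 in 6 in PAP vs CHR. In SCC vs CHR Elovl4 was in 6 of the 13 and Smpd1 in 5. The ratio of Alox12b to its neighbour Aloxe3 was 1.44, 1.59 and 1.78 in CHR, 1.44, 2.29 and 2.96 in PAP, and 1.51, 1.84 and 5.83 in SCC, where the groups overlapped and the lesion was higher in 5 of 6 mice in both comparisons. The highest SCC value was that of mouse 9.

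**Figure D3:**
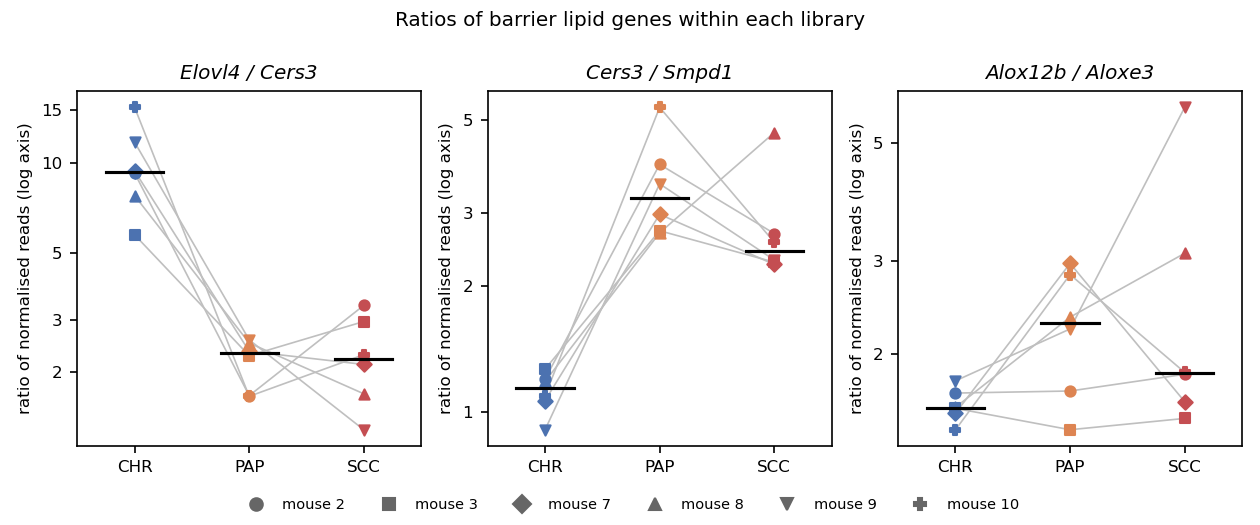
Ratio of normalised reads (log axis) of Elovl4 to Cers3, Cers3 to Smpd1 and Alox12b to Aloxe3 in each library of CHR, PAP and SCC, with lines joining the samples of a mouse. For the 2 ratios with Cers3 the CHR points do not overlap with the lesions (5.75 to 15.3 against at most 3.35 for Elovl4 to Cers3), and for Alox12b to Aloxe3 they do.

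The highest and lowest values of different genes often came from the same animals. In CHR the skin of mouse 7 had the lowest value for 8 of the 9 genes and that of mouse 2 the highest for 8. The exception to both was Elovl4, which was lowest in mouse 3 and highest in mouse 10. The summed sebaceous gland genes were also lowest in mouse 3 (68304) and highest in mouse 10 (175073) in CHR. The lesions did not repeat this match. In SCC the sum was lowest in mouse 10 (7463), where Elovl4 was highest (10693), and highest in mouse 8 (21893). In PAP the sum was highest in mouse 2 (12430) and lowest in mouse 10 (8268), while Elovl4 was highest in mouse 9 and lowest in mouse 3. Any part of sebaceous gland cells in the Elovl4 values was not tested. In PAP mouse 3 was the lowest for 6 of 9 genes and mouse 9 the highest for 7, and the papillomas of mice 2 and 3 were the 2 lowest for 6 of 9. In SCC the carcinomas of mice 7 and 8 were the 2 lowest for 6 of 9. The coefficient of variation between mice was 16.6 to 37.9% in CHR, 34.4 to 62.4% in PAP and 30.2 to 103% (102.5%) in SCC. Mouse 7 was therefore among the lowest in CHR and SCC but not in PAP, where it had the highest value for 2 of the 9 genes.

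Because epithelial markers took a larger share of the reads in the papillomas, the comparison was also made with each library scaled to the mean log2 level of the 24 general epithelial genes. This scaling moved the median log2 fold change of all genes to -0.90 in PAP vs CHR, 0.54 in SCC vs PAP and -0.36 in SCC vs CHR. Relative to those epithelial genes, 6 of 9 barrier lipid genes were lower in PAP than in CHR and 0 higher, beside 79.7% of all genes called lower and 1.38% higher on this scaling. They were Elovl4 (-2.40, adjusted p = 1.90e-06 by limma), Smpd1 (-1.84), Pnpla1 (-1.25), Aloxe3 (-0.98), Abca12 (-0.95) and Ugcg (-0.79, adjusted p = 0.0124 by limma), the last of which was 0.11 on the deposited scaling. Cers3 (-0.29, adjusted p = 0.208 by limma), Cyp4f39 (-0.38) and Alox12b (-0.56) were not called. In SCC vs CHR 4 of 9 were lower on this scaling, namely Elovl4 (-2.15), Smpd1 (-1.27), Abca12 (-0.87) and Pnpla1 (-0.84), beside 30.8% of all genes called lower and 2.76% higher. In SCC vs PAP 0 of 9 were called by limma, 2 of 9 had an unadjusted p under 0.05, and 49.1% of all genes were called higher and 0.0413% lower. With only 9 genes the share called lower moves in coarse steps, and no difference from all genes was read from it on this scaling. Within a comparison this scaling moves every gene by the same amount, so the order of the 9 genes was that of the deposited scaling. Which of the 2 scalings reflects the level per keratinocyte was not tested.

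The rest of the pathway was described with lists that leave out the 9 genes. Of all genes, 29.3% were called lower and 23.3% higher in PAP vs CHR on the deposited scaling. In SCC vs CHR 22.7% were called lower and 15.8% higher. These shares stand beside the counts of each list below on the deposited scaling. Of 13 measured genes of ceramide synthesis, 5 fell and 0 rose in PAP vs CHR (median -0.38), and 6 fell and 0 rose in SCC vs CHR (median -0.40). Fa2h, the fatty acid hydroxylase of ceramides, went from a median of 1581 normalised reads in CHR to 39.2 in PAP (log2 fold change -4.19, adjusted p = 3.37e-06 by limma, lower in 6 of 6 mice). Cers4, a ceramide synthase, went from 3668 to 341 (-3.17), and Sptlc3, a subunit of serine palmitoyltransferase, had a change of -1.26 in PAP and -1.81 in SCC relative to CHR. Of 18 genes of fatty acid elongation and acylceramide formation 10 fell and 0 rose in each comparison with CHR (medians -0.62 in PAP and -0.58 in SCC). Under the epithelial scaling 10 of the 13 and 17 of the 18 genes were lower in PAP relative to CHR, and 7 and 12 were lower in SCC, with 0 higher. Among them were Elovl3 (-4.71 in PAP vs CHR, from a median of 3051 to 103 reads), Elovl6 (-3.04) and Elovl7 (-1.38), all elongases, and Pnpla2, a triglyceride lipase related to Pnpla1 (-2.16). Sebaceous gland genes fell in the same comparisons, as given above, and their part in these values was not tested.

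Of 24 genes of ceramide processing and transport, 11 fell and 1 rose in PAP vs CHR (median -0.46), and 14 fell and 1 rose in SCC vs CHR (median -0.51). Psap, the precursor of the saposins that help lysosomal enzymes reach their lipids, went from a median of 56193 normalised reads in CHR to 15549 in PAP (log2 fold change -1.82, adjusted p = 2.13e-05 by limma) and 20462 in SCC (-1.25). Sgpl1, which degrades sphingosine phosphate (-1.39), Acer1, the alkaline ceramidase of epidermis (-1.35), and Abca1, a cholesterol transporter (-2.12), fell in PAP vs CHR too. The gene that rose was Smpd4, a neutral sphingomyelinase, with 0.45 in the papillomas and 0.37 in the carcinomas relative to CHR, the opposite direction to Smpd1. Under the epithelial scaling this rise was lost, with -0.45 (adjusted p = 0.0506 by limma) in PAP and 0.03 in SCC relative to CHR. On that scaling the list had 23 of 24 genes lower in PAP and 18 in SCC, with 0 higher. Of all genes, 79.7% and 30.8% were called lower in these comparisons. Of 6 other lipoxygenase genes 4 fell in PAP and 3 in SCC relative to CHR, with 0 higher. Alox12e, a further epidermal lipoxygenase gene, went from a median of 2570 reads (2569.9) in CHR to 118 in PAP (-4.24, adjusted p = 3.51e-06 by limma) and 111 in SCC (-3.93), where Alox12b and Aloxe3 were not called. Alox5 and Alox5ap, which leukocytes also express, had values of -1.62 and -1.94 in PAP vs CHR.

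Cornified envelope and terminal differentiation genes, which the same cells express, were measured for 23 genes. In PAP vs CHR 4 fell and 1 rose (median -0.65), and in SCC vs CHR 11 fell and 1 rose (median -0.95). The epithelial scaling called 79.7% of all genes lower in PAP and 30.8% in SCC relative to CHR. On it 18 of 23 of these genes were lower and 1 higher in PAP (median -1.55), and 17 lower and 1 higher in SCC (median -1.29). Flg2, a filaggrin family protein, was lowest in both (-3.83 and -4.66), and Krt10, a keratin of suprabasal cells, fell in both (-1.75 and -2.66). Krt1 (-3.03) fell in SCC vs CHR, and Tgm3, a transglutaminase, rose in both (2.21 and 2.19), from a median of 2506 reads in CHR to 9539 in PAP. Of 16 regulators of barrier genes 3 rose and 3 fell in PAP vs CHR. The nuclear receptor genes parted, since Pparg (-2.99) and Ppara (-1.49) fell and Ppard rose (1.37, adjusted p = 1.13e-05 by limma, higher in 6 of 6 mice), with like signs in SCC vs CHR (-2.41, -1.29 and 1.02). Ppard was also called higher in PAP vs CHR when scaled to the general epithelial list (0.47). In that comparison Tfap2a (1.25) and Klf4 (0.88), factors of keratinocyte differentiation, also rose and Rora (-0.95) fell. Under the epithelial scaling, however, 1 of the 16 regulators was called higher and 8 lower, beside 1.38% and 79.7% of all genes. In SCC vs PAP the call among all these pathway lists was Tfap2a (-0.72, adjusted p = 0.0141 by limma), which was lost under the epithelial scaling. That scaling called 49.1% of all genes higher in SCC than in PAP. Of the lists it called 3 of 13 ceramide synthesis genes and 5 of 18 fatty acid and acylceramide genes higher. It also called 9 of 24 ceramide processing and transport genes, 3 of 6 other lipoxygenase genes and 4 of 16 regulators higher. In the cornified envelope list 0 of 23 were called higher.

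**Figure D4:**
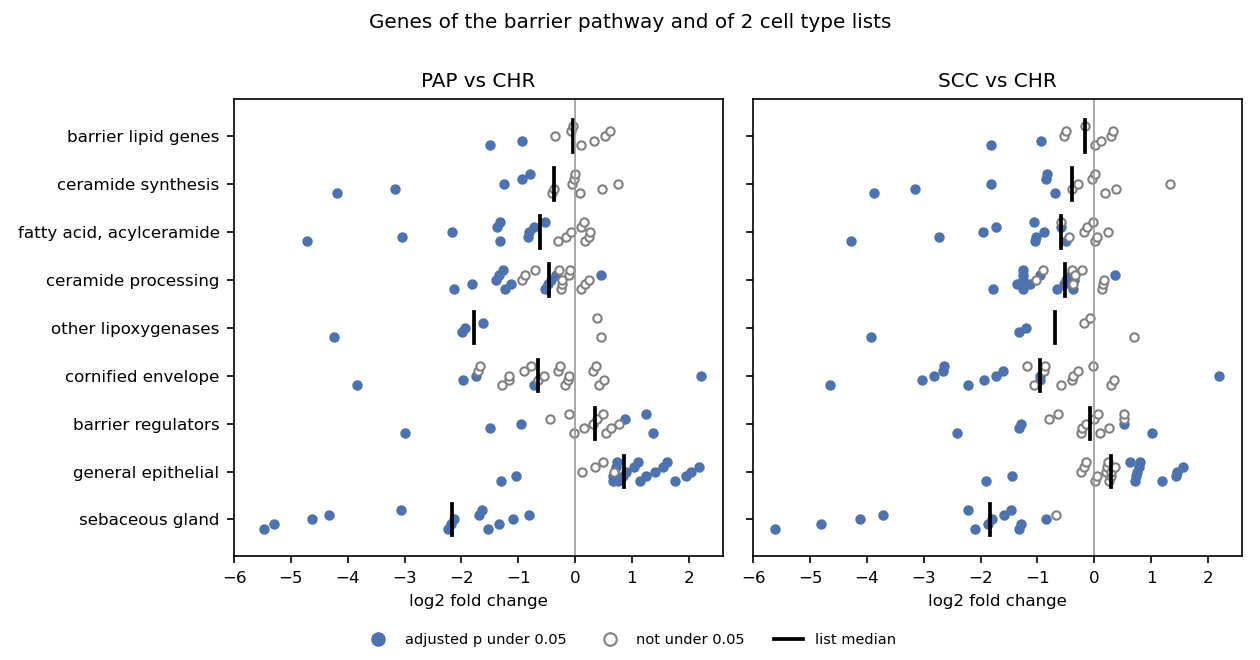
Log2 fold change of each gene of the barrier lipid genes and of the pathway lists in PAP vs CHR and SCC vs CHR. Filled points have an adjusted p under 0.05 and the bar is the median of the list, which is -0.05 for the 9 barrier lipid genes in PAP vs CHR and -0.62 for fatty acid and acylceramide genes.

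The genes with the most similar profile were found for each of the 9 as those with the smallest root mean square difference of centred log2 values over the 18 libraries, among 12701 genes. For Elovl4 they were Elovl7 (0.316), another elongase, Gsdma (0.317) and 9930012K11Rik (0.335). For Smpd1 they were Spns2 (0.246), Dgat2 (0.256), which is also in the sebaceous gland list, and Esyt3 (0.273). Abca12 was closest to Tmprss13 (0.236), Gltp (0.257), a glycolipid transfer protein, and Ppl (0.263), the envelope protein periplakin. Pnpla1 was closest to Mapk13 (0.234), Ppl (0.270) and Abca12 (0.275), the last being the only barrier lipid gene among the 3 nearest of another. Cers3 was closest to Uchl4 (0.237), Dedd2 (0.240) and Rab11a (0.253), and Cyp4f39 to Eps8l2 (0.257), Tmem79 (0.264) and Pkp3 (0.274), the desmosomal plakophilin. Alox12b was closest to Vsig10l (0.4004), Tgm1 (0.441), the transglutaminase of the cornified envelope, and Grhl3 (0.447), a barrier transcription factor, and its chromosomal neighbour Aloxe3 was the fourth (0.489). Aloxe3 was closest to Klf3 (0.312), Plekhn1 (0.327) and Prr24 (0.333), and Ugcg to Plk3 (0.217), Nmral1 (0.274) and Cdc42ep5 (0.280). The libraries share mice and groups, so these distances describe the 18 samples only.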

How the data were processed

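Libraries and mouse numbers were grouped by the sample titles (3 groups of 6 mice). The authors aligned reads to mm10 with MOSAIK, counted them per gene with HTSeq, applied scaling factors and the DESeq2 variance-stabilizing transformation, and deposited its values on a linear scale, rounded to whole numbers, a score in which 0 reads appear as 39. A median scaling of batches is named in their methods too. No batch was labelled, and annotation release, tool versions and strandedness were not given in the sources used here. Low genes had been removed, the smallest row maximum being 57.

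Because the deposited score is not a count, limma (version 3.58.1, R 4.3.3) was run on log2(value + 1) with group coefficients and the mouse as a block, on all 18 libraries, two-sided, with Benjamini-Hochberg adjustment over 14521 genes. This scale understates changes of low genes. Another 21 unnamed entries, at most 0.236% of a library, were left out. The transformation was inverted (zero level 39.13) to recover reads, and 99.2% of values (96.8 to 100% per library) were equal, with no tolerance, to the rounded transform of a whole number of reads, as were 99.9% of values under 100. High values of libraries with a size factor over 1 match by construction. Size factors were 0.835 to 1.18. The scripts were tested on simulated data. Recovered depth was 15.4 to 21.0 M reads. The error of each fold change was estimated by limma from the residual after the mouse block, pooled over all 18 libraries. A gene thus has the same SE in each comparison, 0.34 for Elovl4. It does not follow the spread of a single comparison. For Elovl4 the standard deviation of the within-mouse log2 differences from CHR was 1.04 for papillomas but 0.44 for carcinomas.

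Same-numbered samples come from the same animal, which is where the pairing comes from. Their deviations from the group means correlated at -0.245 to 0.507. Alternatives were fits without the block, with the mouse as a random effect or of 2 groups only, limma-voom on recovered reads, other pseudocounts, quantile normalization, scaling to general epithelial genes, filters on low reads and leaving out each mouse. The 9 genes, the lists and the tests were chosen with earlier results of these data known. Genes named from the lists were among up to 4 per list and comparison with the largest absolute log2 fold change of those called. Smpd4 and, in PAP vs CHR, Klf4 and Rora were named after their values were seen. Of the lists, Cers1, Elovl2, Flg, Trac and Trdc were not analysed here.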

Additional observations from a re-analysis of the deposited data

Results flagged for a closer look

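Among 54 groups of 6 values checked for a sample far from the others, 2 stood apart, where chance gives about 1 in 20. The carcinoma of mouse 9 had 5038 normalised reads of Alox12b beside a group median of 1093, and its gap to the next carcinoma was 0.838 of the range of the group. The fall of Elovl4 in SCC vs CHR was smallest in mouse 3, with a log2 difference of -0.98 beside a median of -1.90 over the 6 mice and a gap of 0.640 of the range.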

How the results depend on the processing

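The number of the 9 genes called (2 in PAP vs CHR, 0 in SCC vs PAP, 2 in SCC vs CHR) was the same under every alternative except 2. Scaling to the general epithelial genes gave 6 and 4 in the comparisons with CHR, with Ugcg in PAP vs CHR turned to -0.79, and leaving out a mouse gave 1 to 3 in PAP vs CHR, 1 to 2 in SCC vs CHR and 0 in SCC vs PAP. Without the replicate block the numbers were 2, 0 and 2, and the block changed no call of a member gene. Over all genes, SCC vs PAP had 1430 calls, 810 without the block, 709 with at least 10 reads in every library, 7139 under the epithelial scaling, 0 in a fit of those 2 groups alone, and 0 (without mouse 7 or 8) to 1995 when a mouse was left out (471 without mouse 3). PAP vs CHR had 7639 calls (3388 higher, 4251 lower), 11774 under the epithelial scaling (200 higher, 11574 lower), 8550 under quantile normalization (5339 higher, 3211 lower) and 5960 with at least 10 reads in every library (3249 higher, 2711 lower). SCC vs PAP split into 1270 higher and 160 lower, against 709 and 326 under quantile normalization and 7133 and 6 under the epithelial scaling. SCC vs CHR had 2291 higher and 3292 lower, against 3667 and 2680 under quantile normalization and 401 and 4472 under the epithelial scaling. Quantile normalization moved the median of all genes to 0.16, -0.07 and 0.10 in the 3 comparisons. The cause of these differences was not tested.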
